A study of Arabidopsis thaliana with 12 samples.

Results

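The *LNK* genes (NIGHT LIGHT-INDUCIBLE AND CLOCK-REGULATED) form a family of 4 in *Arabidopsis*: *LNK1* (AT5G64170), *LNK2* (AT3G54500), *LNK3* (AT3G12320) and *LNK4* (AT5G06980). They were chosen as the complete family, by locus, and their 4 gene models are among the 26245 models in the count table. All 4 passed the filter on low counts, which left 19961 models for testing.

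The LNK proteins are plant-specific and have no known DNA-binding domain. They bind the MYB-like transcription factors RVE8 and RVE4 and act with them as transcriptional coactivators of evening-phased clock genes such as *PRR5* and *TOC1*. *LNK1* and *LNK2* transcripts peak in the morning and are induced by light, and plants without both genes have a long circadian period.

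Seedlings carried *rve8-1* in every group, either with the *RVE8::RVE8:GR* transgene (called *RVE8:GR*) or without it (called *rve8*). In the transgene a genomic fragment of *RVE8* with its own upstream sequence is fused to the glucocorticoid receptor hormone-binding domain, so that dexamethasone (DEX) releases the fusion protein to the nucleus. The groups were *RVE8:GR* + DEX, *RVE8:GR* + mock, *rve8* + DEX and *rve8* + mock, with 3 libraries each. Whole seedlings, 7 days old and about 30 to a sample, were grown on medium with 3% sucrose in cycles of 12 hours light and 12 hours dark. They were moved to DEX or solvent 4 hours after lights on (ZT4) and frozen after 4 hours, at ZT8. The DEX concentration is given as 30 mM in the sample labels and as 30 µM in the methods. *RVE8:GR* and *rve8* are each represented by a single line, so an effect of the fusion protein and another difference between the lines cannot be told apart where the lines are compared. The labels number the libraries but do not state separate sowings, and the p-values measure only the spread between these samples.

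The libraries held 15975840 to 21713130 counts. Levels are given as counts scaled to library size (CPM, the usual per-million unit) scaled with TMM factors, and 3 counts correspond to 0.138 to 0.188 CPM. *RVE8* itself, which the counts do not separate from the fusion transcript, was at 5.20 to 6.31 CPM in *RVE8:GR* + DEX, 8.35 to 9.76 CPM in *RVE8:GR* + mock, 0.601 to 1.33 CPM in *rve8* + DEX and 0.606 to 2.06 CPM in *rve8* + mock. The lines did not overlap, as their labels require. All 10 marker genes of shoot and root cell types had counts in every library. In whole seedlings, fewer cells of a type and less RNA per cell cannot be told apart.

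The genes lie on 2 chromosomes, given here in the TAIR10.1 assembly and its annotation. *LNK1* spans positions 25672466 to 25676823 of chromosome 5 on the reverse strand, and its counted model has 8 exons, a cDNA of 2667 bases and a coding length of 1851 bases. *LNK2* spans 20175370 to 20179070 of chromosome 3, also on the reverse strand, with 6 exons, a cDNA of 2333 bases and a coding length of 2043 bases. This model has 0 bases after its coding sequence, against 438 for *LNK1*, 240 for *LNK3* and 238 for *LNK4*. Levels per kb below use these cDNA lengths unless stated. *LNK3* spans 3923515 to 3925502 of chromosome 3 and *LNK4* spans 2167120 to 2169437 of chromosome 5. Both of these are on the forward strand and have 6 exons, and their coding lengths of 810 and 840 bases set them apart from the longer *LNK1* and *LNK2*. No stretch of 50 bases in any of the 4 cDNAs occurs exactly in the cDNA of another gene, among the 25259 models found by name in TAIR10.1. Exact reads of that length are therefore not shared between members. Shorter reads and matches with mismatches were not searched. The ends of neighbouring genes overlap each member, on the opposite strand for *LNK1*, *LNK2* and *LNK3* and by 13 bases on the same strand for *LNK4*. Counting was by strand, which separates the opposite-strand neighbours.

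The upstream sequence of each gene, taken as 1500 bp before the start codon, was searched on both strands for motifs used by clock transcription factors. The G-box, CACGTG, is bound by bHLH and bZIP factors, among them PIF proteins and HY5. It was found upstream of 4 of 4 *LNK* genes, at 8 sites, against 21.1% of the 23789 promoters searched. The stretches around these sites are shown because the G-box is the only motif searched that the 4 genes share. Each is written 5′ to 3′ in the direction of the gene, with the G-box in capitals and the distance from the box to the start codon in the name.

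*LNK1*, 885 bp, reverse strand, chr5:25676820-25676825: gatttagttgcCACGTGttgatatcatg
*LNK2*, 303 bp, reverse strand, chr3:20179041-20179046: cactcgtttggCACGTGaccatttcata
*LNK3*, 684 bp, forward strand, chr3:3923344-3923349: taatcacatgcCACGTGtcttattctcc
*LNK3*, 654 bp, forward strand, chr3:3923374-3923379: aaagagagtgtCACGTGtgcctagatat
*LNK3*, 452 bp, forward strand, chr3:3923576-3923581: atatgacagtaCACGTGggccaatgaga
*LNK4*, 591 bp, forward strand, chr5:2167202-2167207: aaacagtctgtCACGTGtcatcacctcc
*LNK4*, 560 bp, forward strand, chr5:2167233-2167238: tacctacaggaCACGTGtctacaccaaa
*LNK4*, 328 bp, forward strand, chr5:2167465-2167470: gatatgtttaaCACGTGgaccaatgaaa

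The coordinates are those of the box. *LNK3* and *LNK4* had 3 boxes each, in the same arrangement of a close pair and a single box nearer to the start codon, whereas 219 of the 23789 promoters (0.921%) had at least 3. In the single boxes of *LNK3* and *LNK4*, 9 of the 11 bases that follow the box are the same. Over the whole stretch of 28 bases this pair matches at 16, and other pairs match at more, such as *LNK1* and *LNK2* at 17. The whole stretches do not set the single boxes of *LNK3* and *LNK4* apart from the other boxes. Over the 11 bases after the box this pair matched at the most, and no other pair matched at more than 7. The box of *LNK1* and the nearest box of *LNK4* lie across the start of the counted transcript, the nearest box of *LNK3* lies in a 5′ UTR exon, and the other 5 lie upstream of the counted transcript. Of these 5, those of *LNK2* and *LNK4* still lie within the annotated span of their gene.

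The evening element, AAATATCT, is the sequence through which RVE8, CCA1 and LHY bind their targets. It was found in 20.6% of promoters and in none of the 4 upstream of the *LNK* genes. The long evening element, AAAATATCT, which contains it, was found in 9.77% of promoters and in none of the 4, as was the CCA1-binding site, AAAAATCT, found in 29.5%. A sequence bound by LUX, GATACG, was found in 24.2% of promoters and upstream of *LNK2* alone, 358 bp from its start codon. The shorter evening element-like sequence AATATCT, which the paper also found enriched upstream of RVE8-induced genes, was not searched. For *LNK1* the part of the window up to the box at 885 bp lies inside the counted transcript. These matches describe the letters in the window and no binding was measured here.

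**Figure D1:**
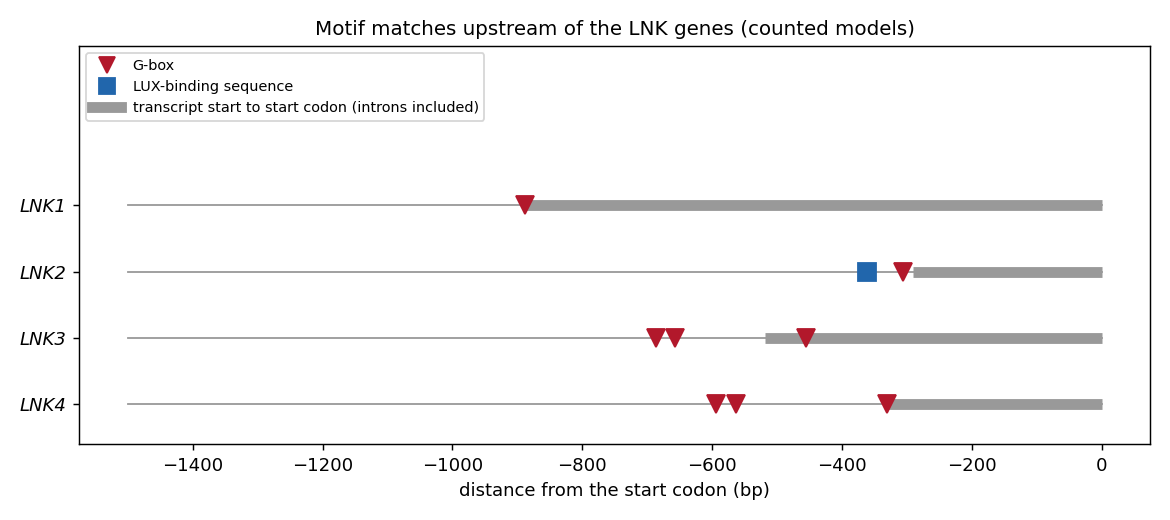
Motif matches in the 1500 bp upstream of the start codon of the *LNK* genes. The x axis is the distance from the start codon in bp, the thick bar runs from the start of the counted transcript to the start codon, triangles are G-boxes and the square is the LUX-binding sequence. *LNK3* and *LNK4* show 3 G-boxes each, *LNK1* and *LNK2* 1 each.

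*LNK3* fell with induction, while the other members had lower means by less and were not called. This comparison, *RVE8:GR* + DEX against *RVE8:GR* + mock, asks which transcripts responded to 4 hours of DEX in the line with the fusion protein. *LNK3* was at 8.05, 7.47 and 6.36 CPM in *RVE8:GR* + DEX, against 12.3, 14.1 and 10.7 CPM in *RVE8:GR* + mock. Every induced library was below every mock library. The log2 fold change was -0.76 ± 0.131 (SE, n = 3 each), with an adjusted p of 0.000644 by edgeR's quasi-likelihood test over the 19961 genes. A gene is called here at an adjusted p under 0.01.

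*LNK4* was at 22.1, 20.4 and 23.8 CPM in *RVE8:GR* + DEX, against 26.9, 31.9 and 27.4 CPM in *RVE8:GR* + mock. The groups did not overlap, but the log2 fold change of -0.38 ± 0.0907 had an adjusted p of 0.0103 by edgeR and was just outside the threshold. *LNK4* was called in 7 of 9 alternatives that kept every library, among them the exact test (0.00357) and DESeq2 (0.00433). Over all alternatives its adjusted p ranged between 0.00357 and 0.0895. It was also inside the threshold without *rve8* + DEX replicate 3 (0.00986), without *rve8* + mock replicate 1 (0.00683) or without *rve8* + mock replicate 3 (0.00848), libraries that enter this comparison only through the shared estimate of the spread.

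*LNK1* was at 46.7, 46.7 and 46.4 CPM in *RVE8:GR* + DEX, against 53.5, 57.1 and 52.5 CPM in *RVE8:GR* + mock. The induced libraries lay close together and below the mock libraries, and the log2 fold change of -0.22 ± 0.0666 was not called, with an adjusted p of 0.0457 by edgeR. *LNK2*, the member with the highest level, was at 134.6, 120.9 and 136.8 CPM in *RVE8:GR* + DEX, against 141.1, 148.3 and 138.8 CPM in *RVE8:GR* + mock. Here the groups were separated by little, and the log2 fold change was -0.13 ± 0.0824, with a 95% interval of -0.29 to 0.04 and an adjusted p of 0.455 by edgeR.

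In total 1 of 4 members was called lower, against 1.36% of all genes tested, and 4 of 4 had libraries without overlap in that direction, against 11.5% of all genes. The median log2 fold change of the members was -0.30, beside -0.0022 over all genes tested. Among the 10 cell type markers 1 was lower without overlap, the mesophyll gene *LHCB1.1*, beside the 11.5% of all genes. It was at 3626 ± 98.2 CPM in *RVE8:GR* + DEX against 4373 ± 204.2 CPM in *RVE8:GR* + mock. The other mesophyll marker, *RBCS1A*, overlapped, with a higher mean after DEX (19740 against 18080 CPM). The mesophyll sums overlapped too, at 21630 to 24480 CPM with DEX and 21800 to 22770 CPM with mock. Another 3 were higher without overlap, *RHD6* (root hair), *STM* (shoot meristem) and *SUC2* (phloem companion cells), the last at 112.7 ± 2.93 CPM in *RVE8:GR* + DEX against 82.5 ± 2.49 CPM in *RVE8:GR* + mock. For that direction the share of all genes without overlap was not counted. The 4 shoot markers other than mesophyll summed to 230.5 to 236.9 CPM with DEX and 200.3 to 211.8 CPM with mock, and the part of these markers in the result was not tested.

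**Figure D2:**
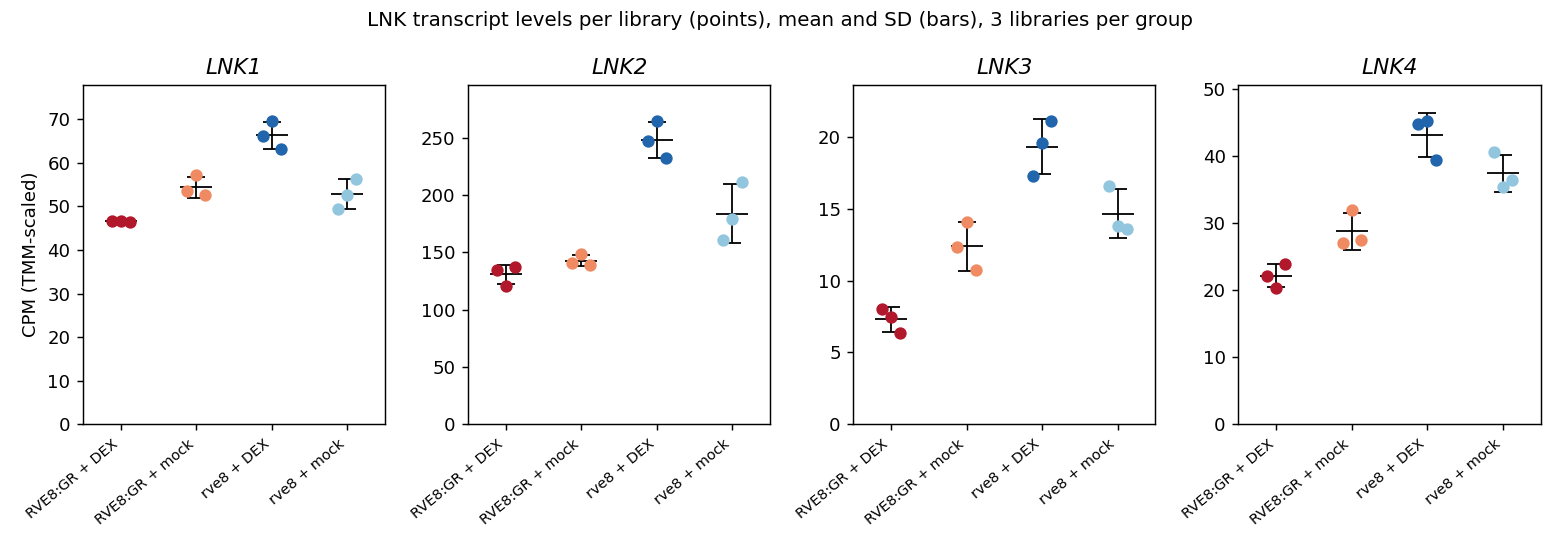
Levels of the 4 *LNK* transcripts in CPM with TMM factors, from 0. Points are single libraries, horizontal lines and bars the mean and SD of 3 libraries. *LNK3* spans 6.36 to 8.05 CPM in *RVE8:GR* + DEX, below the other 3 groups, and all 4 transcripts have their highest mean in *rve8* + DEX.

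With DEX present in both lines, all 4 members were lower in *RVE8:GR* than in *rve8*. The *rve8* + DEX libraries were at 17.3, 19.6 and 21.1 CPM for *LNK3*, against which the *RVE8:GR* + DEX values above give a log2 fold change of -1.40 ± 0.127 (SE, n = 3 each) and an adjusted p of 1.5e-07 by edgeR. *LNK3* ranked 56th from the lowest log2 fold change among the 19961 genes. *LNK4* was at 44.7, 45.1 and 39.3 CPM in *rve8* + DEX, all above its *RVE8:GR* + DEX libraries, with a log2 fold change of -0.96 ± 0.0891 and an adjusted p of 1.87e-07 by edgeR.

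*LNK2* was at 247.6, 264.4 and 232.3 CPM in *rve8* + DEX, and its highest *RVE8:GR* + DEX library, at 136.8 CPM, was well below them. Its log2 fold change was -0.92 ± 0.0824, with an adjusted p of 2.22e-07 by edgeR. *LNK1* was at 66.1, 69.5 and 63.2 CPM in *rve8* + DEX, also without overlap, and had the smallest change of the family, -0.51 ± 0.0663 on the log2 scale, with an adjusted p of 1.79e-05 by edgeR.

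The 4 of 4 called lower stand beside 2.32% of all genes tested, and the 4 of 4 without overlap beside 12.8%. The median log2 fold change was -0.94 for the members and 0.0063 for all genes. Each of these 4 calls held in the 12 fits that left out 1 library and in the 9 other alternatives. This comparison uses the same *RVE8:GR* + DEX libraries as the comparison with mock, so the 2 are not independent. Of the 10 markers, *SCR*, *RHD6* and *LHCB1.1* were lower without overlap, beside the 12.8% of all genes, and *SUC2* was higher without overlap. The share of all genes higher without overlap was not counted here. Summed root markers were at 70.2 to 78.7 CPM in *RVE8:GR* + DEX and 75.1 to 88.0 CPM in *rve8* + DEX, with *RHD6* at 1.98 ± 0.240 CPM and 3.11 ± 0.571 CPM in these groups. Their part in the result was not tested.

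DEX was applied also to *rve8*, where no fusion protein is present. There *LNK1* and *LNK2* rose. *LNK1* was at 66.1, 69.5 and 63.2 CPM in *rve8* + DEX, against 49.5, 52.7 and 56.2 CPM in *rve8* + mock, without overlap. The log2 fold change of *LNK1* was 0.33 ± 0.0664 (SE, n = 3 each), with an adjusted p of 0.00223 by edgeR. *LNK2* was at 247.6, 264.4 and 232.3 CPM in *rve8* + DEX, against 160.7, 179.2 and 211.5 CPM in *rve8* + mock. The mock libraries were spread widely but stayed below the DEX libraries, and the log2 fold change was 0.43 ± 0.0817, with an adjusted p of 0.00149 by edgeR.

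*LNK3* was at 17.3, 19.6 and 21.1 CPM in *rve8* + DEX, against 16.6, 13.8 and 13.6 CPM in *rve8* + mock. The groups met closely at 17.3 and 16.6 CPM, and the log2 fold change of 0.40 ± 0.121 was not called, with an adjusted p of 0.0331 by edgeR. *LNK4* was at 44.7, 45.1 and 39.3 CPM in *rve8* + DEX, against 40.5, 35.3 and 36.3 CPM in *rve8* + mock. These groups overlapped, and the log2 fold change of 0.20 ± 0.0868 had an adjusted p of 0.134 by edgeR.

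So 2 of 4 members were called higher, against 3.96% of all genes tested, and 3 of 4 had libraries without overlap in that direction, against 15.7%. The median log2 fold change was 0.36 for the members and -0.0074 for all genes. Both calls depended on single libraries. *LNK1* missed the threshold without *rve8* + DEX replicate 1 (adjusted p = 0.0111 by edgeR), without *rve8* + DEX replicate 2 (0.0178), without *rve8* + mock replicate 1 (0.0149) or without *rve8* + mock replicate 2 (0.0142). *LNK2* missed it without *rve8* + DEX replicate 2 (adjusted p = 0.0113 by edgeR) or without *rve8* + mock replicate 2 (0.0142). Of the 10 markers, *SCR*, *LHCB1.1*, *ATML1* and *SUC2* were also higher with DEX without overlap, beside the 15.7% of all genes. *SUC2* was at 103.5 ± 3.18 CPM in *rve8* + DEX and 78.9 ± 7.94 CPM in *rve8* + mock. The 4 shoot markers other than mesophyll summed to 223.3 to 233.8 CPM and 169.5 to 196.8 CPM in these groups. The part of the markers in the result was not tested.

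With mock treatment in both lines no member was called. In *RVE8:GR* + mock against *rve8* + mock, *LNK4* was at 26.9, 31.9 and 27.4 CPM in *RVE8:GR*, against 40.5, 35.3 and 36.3 CPM in *rve8*. *LNK2* was at 141.1, 148.3 and 138.8 CPM in *RVE8:GR*, against 160.7, 179.2 and 211.5 CPM in *rve8*. For both genes every *RVE8:GR* library was below every *rve8* library, with log2 fold changes of -0.38 ± 0.0886 for *LNK4* and -0.36 ± 0.0822 for *LNK2* (SE, n = 3 each). The adjusted p-values by edgeR were 0.0147 and 0.0125 in that order, outside the threshold.

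*LNK3* overlapped between the lines, at 12.3, 14.1 and 10.7 CPM in *RVE8:GR* + mock and 16.6, 13.8 and 13.6 CPM in *rve8* + mock, with a log2 fold change of -0.24 ± 0.124 and an adjusted p of 0.281 by edgeR. *LNK1* overlapped as well, at 53.5, 57.1 and 52.5 CPM in *RVE8:GR* + mock and 49.5, 52.7 and 56.2 CPM in *rve8* + mock. The estimate for *LNK1* was 0.04 ± 0.0668 on the log2 scale, with a 95% interval of -0.09 to 0.17, and it was -0.0074 when *rve8* + mock replicate 1 was left out.

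Thus 0 of 4 members were called by edgeR's quasi-likelihood test, against 0.416% of all genes called lower and 1.31% called higher. At an unadjusted p under 0.05 there were 2, and the share of all genes at that threshold was not counted. DESeq2 and edgeR's exact test each called 2 at the adjusted threshold. These were *LNK2* and *LNK4* in each case. The 2 of 4 without overlap in the lower direction stand beside 10.4% of all genes. The median log2 fold change was -0.30 for the members and -0.0023 for all genes. *LNK2* was called without *RVE8:GR* + DEX replicate 2 (adjusted p = 0.00879 by edgeR) or without *rve8* + mock replicate 1 (0.00158), and *LNK4* without *RVE8:GR* + mock replicate 2 (0.00809). Of the 10 markers, the root hair genes *RHD6* and *EXP7* were lower without overlap in *RVE8:GR*, beside the 10.4% of all genes. *RHD6* was at 1.53 ± 0.223 CPM against 2.92 ± 0.327 CPM in *rve8*. *LHCB1.1*, *FAMA* and *ATML1* were higher without overlap, the first at 4373 ± 204.2 CPM in *RVE8:GR* against 3545 ± 330.8 CPM in *rve8*. The share of all genes higher without overlap was not counted here. The summed root markers overlapped, at 65.1 to 82.9 CPM in *RVE8:GR* and 69.1 to 76.4 CPM in *rve8*. The 4 shoot markers other than mesophyll summed to 200.3 to 211.8 CPM in *RVE8:GR* and 169.5 to 196.8 CPM in *rve8*. The part of the markers in the result was not tested.

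The response to DEX differed between the lines for 3 members, with the call of *LNK2* resting on which libraries were used. The difference was tested as an interaction, the log2 response in *RVE8:GR* minus that in *rve8*. It was -1.16 ± 0.178 (SE) for *LNK3*, with an adjusted p of 0.000658 by edgeR, where the response was -0.76 in *RVE8:GR* and 0.40 in *rve8*. For *LNK1* it was -0.55 ± 0.0940 with an adjusted p of 0.00148 by edgeR, from responses of -0.22 in *RVE8:GR* and 0.33 in *rve8*.

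For *LNK2* it was -0.56 ± 0.116 with an adjusted p of 0.0092 by edgeR, and most of it came from the response of 0.43 in *rve8*, since that in *RVE8:GR* was -0.13. *LNK4* was of similar size, -0.59 ± 0.126, but with an adjusted p of 0.0102 by edgeR it was not called. The 3 of 4 called lower stand beside 0.947% of all genes, with 0.24% called higher, and the median was -0.57 for the members and 0.011 for all genes. The calls of *LNK1* and *LNK3* held in the 12 fits without 1 library each, that of *LNK2* in 2 of them, without *rve8* + DEX replicate 3 (adjusted p = 0.00924 by edgeR) and without *rve8* + mock replicate 3 (0.000311). In the other 10 fits its adjusted p was between 0.0155 and 0.0364. *LNK4* was called without *rve8* + DEX replicate 3 (0.0082) or without *rve8* + mock replicate 1 (0.00663), and in 4 of 7 alternatives that kept every library, among them DESeq2 (0.00226).

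**Figure D3:**
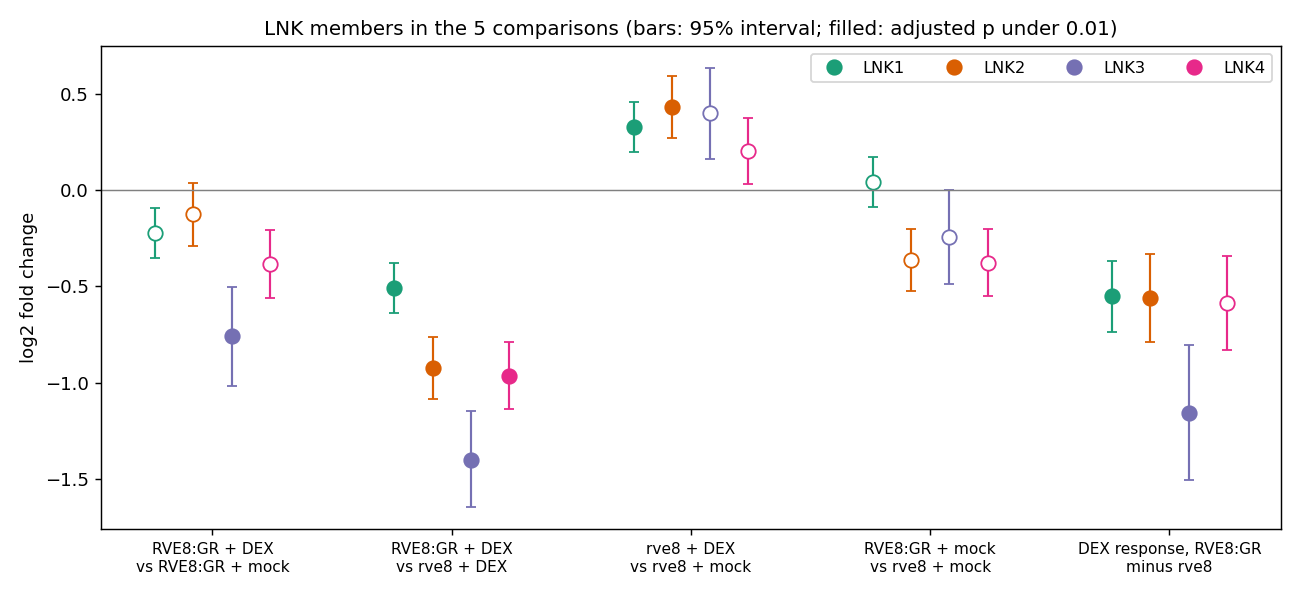
Log2 fold changes of the 4 *LNK* genes in the 4 comparisons of groups and in the interaction. Points are estimates by edgeR, bars the 95% interval, and filled points have an adjusted p under 0.01. All 4 points lie below 0 in *RVE8:GR* + DEX against *rve8* + DEX, between -1.40 and -0.51, and above 0 in *rve8* + DEX against *rve8* + mock.

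Per kb of cDNA, *LNK2* had the highest and *LNK3* the lowest level of the family in each of the 4 groups. *LNK2* averaged 56.1 CPM per kb with DEX and 61.2 with mock in *RVE8:GR*, and 106.3 with DEX and 78.8 with mock in *rve8*. *LNK3* averaged 4.94 CPM per kb with DEX and 8.39 with mock in *RVE8:GR*, and 13.1 with DEX and 9.94 with mock in *rve8*. Both were separated from the middle members in every library.

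The order of the middle members was less clear. In *RVE8:GR* + DEX, *LNK1* was at 17.4 to 17.5 CPM per kb and *LNK4* at 15.4 to 17.98, and in *RVE8:GR* + mock, *LNK1* was at 19.7 to 21.4 and *LNK4* at 20.4 to 24.1. These ranges overlap. In *rve8*, *LNK4* was above *LNK1*, at 29.7 to 34.1 against 23.7 to 26.1 CPM per kb with DEX and 26.7 to 30.6 against 18.6 to 21.1 with mock. The order rests on the length used: with the longest annotated model of *LNK4*, 1725 bases in place of 1323, its mean in *rve8* + DEX was 25.0 CPM per kb, beside 24.9 for *LNK1*.

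The summed level of the family was 95.2 ± 4.69 CPM per kb with DEX and 111.7 ± 6.14 with mock in *RVE8:GR*, and 176.8 ± 9.72 with DEX and 136.8 ± 10.2 with mock in *rve8* (SD, n = 3 each). *LNK2* made up 54.8% to 60.1% of this sum in the group means. The share of *LNK3* was 5.21% ± 0.714 in *RVE8:GR* + DEX, and 7.32% to 7.49% in the other groups.

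**Figure D4:**
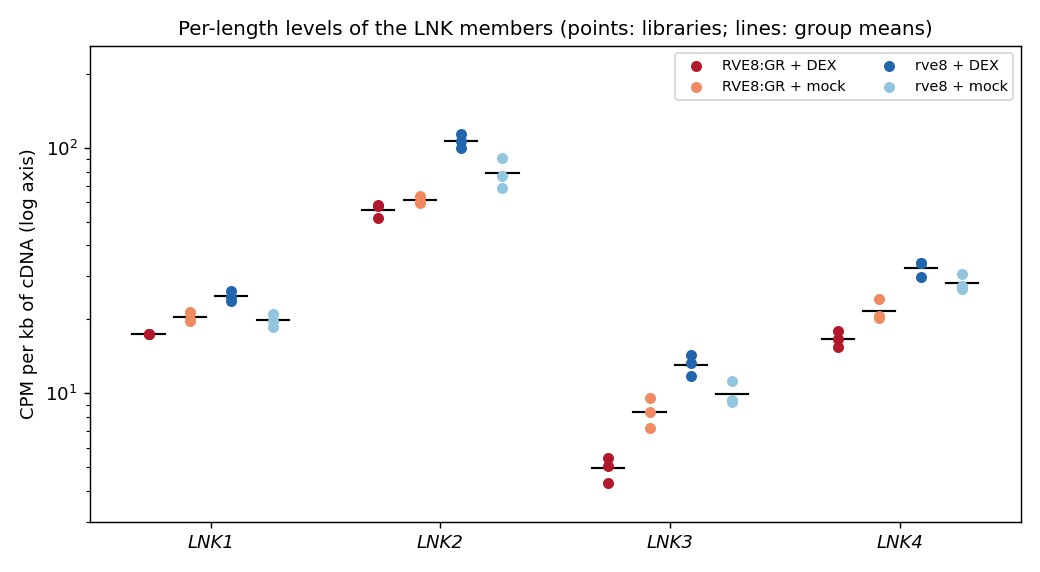
Per-length levels of the *LNK* members in CPM per kb of cDNA, on a log axis. Points are libraries and lines the means of 3 libraries in each group. *LNK2* is the highest in each group, between 56.1 and 106.3 CPM per kb, and *LNK3* the lowest.

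Whether pairs of members changed by the same factor was compared through their ratios. The log2 ratio of the per-length levels was compared between groups for the 6 pairs of members, 24 comparisons in all, by an exact permutation test (two-sided). With 3 libraries against 3 the smallest p this test allows is 0.1, or 0.218 after adjustment over the 24, so none could pass the threshold. In *RVE8:GR* + DEX against *rve8* + DEX the ratios did not overlap for 5 of 6 pairs, *LNK2* and *LNK4* being the exception, against 26.9% of all pairs formed from the 19949 tested genes with counts in every library. In *RVE8:GR* + DEX against *RVE8:GR* + mock they did not overlap for 4 of 6, against 24% of all pairs. In *RVE8:GR* + mock against *rve8* + mock they did not overlap for 2 of 6, against 21.2%. In *rve8* + DEX against *rve8* + mock they overlapped for each of the 6 pairs, where 28.6% of all pairs did not overlap. The 6 pairs share members and are not independent.

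The ratio of *LNK1* to *LNK3* differed most in *RVE8:GR* + DEX against *rve8* + DEX. Its log2 value was 1.83 ± 0.168 in *RVE8:GR* + DEX, against 0.93 ± 0.180 for *rve8* + DEX (SD, n = 3 each), a difference of 0.90 (exact p = 0.1). It was 1.29 ± 0.140 in *RVE8:GR* + mock, a difference of 0.54 (exact p = 0.1), where that of *LNK2* to *LNK3* differed by 0.63 (exact p = 0.1). For *LNK2* to *LNK4* it was 1.75 ± 0.0417 in *RVE8:GR* + DEX, against 1.71 ± 0.0513 for *rve8* + DEX, which overlapped.

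Other clock genes, 29 in number and all tested, were counted beside the family. In *RVE8:GR* + DEX against *RVE8:GR* + mock 1 of 29 was called lower (1.36% of all genes) and 11 of 29 higher (2.07% of all genes). The one called lower was *PRR9*, the pseudo-response regulator of the early day, with a log2 fold change of -0.96 ± 0.116. Among the 11 were later-phased repressors of the clock, *PRR5* (1.16 ± 0.0889) and *TOC1* (0.64 ± 0.0683), the 3 evening complex genes *LUX* (0.62 ± 0.0954), *ELF4* (0.55 ± 0.101) and *ELF3* (0.28 ± 0.0636), and the photoperiod genes *GI* (0.43 ± 0.0594) and *FKF1* (0.94 ± 0.117). The cold- and light-regulated genes *COR27* (1.70 ± 0.174) and *COR28* (1.32 ± 0.175), and *PRR7* (0.38 ± 0.0619) and *RVE7* (0.52 ± 0.0935), completed them. *LNK3* thus shared its direction with *PRR9* and differed in it from *PRR5*, *TOC1* and the evening complex genes.

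In *RVE8:GR* + DEX against *rve8* + DEX 5 of 29 were called lower (2.32% of all genes) and 10 of 29 higher (1.89% of all genes). The 5 in the direction of the *LNK* genes were the morning-phased MYB-like genes *LHY* (log2 fold change -2.13 ± 0.193) and *CCA1* (-1.71 ± 0.103), *PRR9* (-1.37 ± 0.114), *RVE1* (-1.22 ± 0.172), a regulator of auxin levels, and *RVE4* (-0.66 ± 0.0831), a close homolog of *RVE8*. Those higher included *PRR5* (1.57 ± 0.0909), *FKF1* (1.64 ± 0.124), *COR27* (1.89 ± 0.177) and *PRR3* (1.02 ± 0.136). *RVE8*, at 2.52 ± 0.305, was among the 10 and is the gene by which the lines differ.

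DEX in *rve8* raised 4 of 29, *CCA1* (log2 fold change 0.88 ± 0.0989), *LHY* (0.72 ± 0.175), *RVE1* (0.84 ± 0.170) and *PRR7* (0.39 ± 0.0623), against 3.96% of all genes called higher. It lowered 0 of 29 by edgeR's quasi-likelihood test, against 1.57% of all genes called lower. At an unadjusted p under 0.05 the count was also 0, and the share of all genes at that threshold was not counted. After mock treatment 2 of 29 were lower in *RVE8:GR* than in *rve8*, *CCA1* (-0.54 ± 0.104) and *LHY* (-0.999 ± 0.195), against 0.416% of all genes. Another 4 were higher, *RVE8*, *FKF1*, *PRR5* and *GI*, against 1.31% of all genes. In the interaction *CCA1* (-1.17 ± 0.146) and *PRR9* (-1.38 ± 0.158) were called lower, as *LNK1*, *LNK2* and *LNK3* were, and *PRR5*, *ELF4*, *COR27* and *COR28* higher. Of all genes 0.947% were called lower and 0.24% higher in the interaction.

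**Figure D5:**
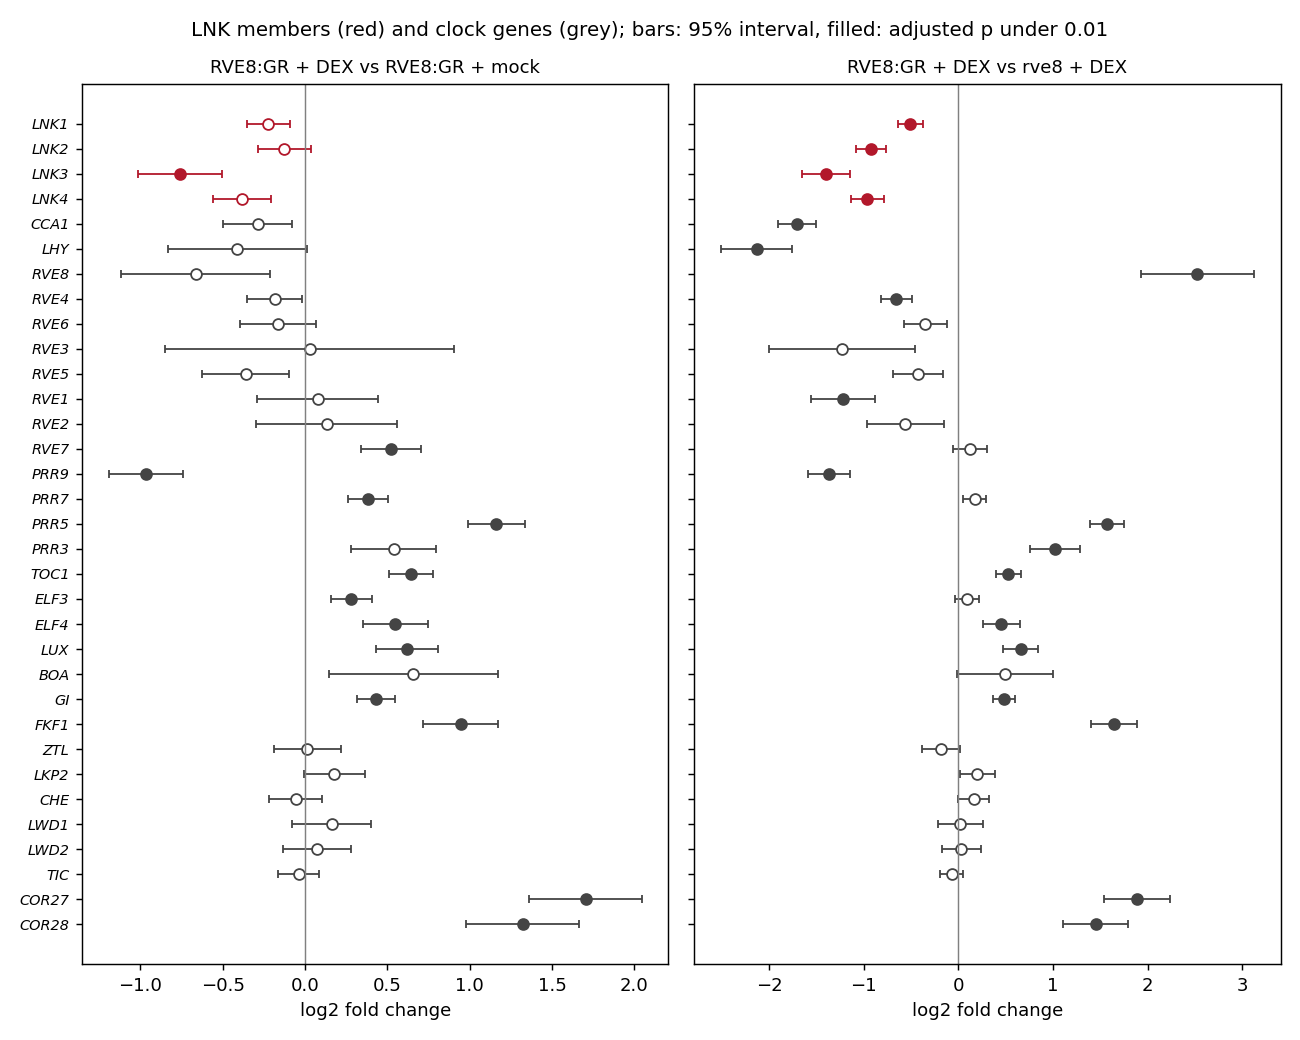
Log2 fold changes of the *LNK* members (red) and of 29 other clock genes (grey) in *RVE8:GR* + DEX against *RVE8:GR* + mock (left) and against *rve8* + DEX (right). Bars are the 95% interval and filled points have an adjusted p under 0.01 by edgeR. The *LNK* genes lie on the side of *CCA1*, *LHY* and *PRR9* in both panels, with *PRR5*, *TOC1* and *COR27* on the other side.

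The genes with the pattern most like each member over the 12 libraries were found by Pearson's r of log2(CPM + 1), among 15583 genes with a mean of at least 5 CPM. The correlations describe libraries that share the 4 group means and are given without a test. For *LNK2* the nearest were AT1G64500 (r = 0.974), *CCA1* (0.971) and *LHY* (0.970). For *LNK3* they were *TZP* (0.980), a zinc knuckle protein of light signalling, AT3G60080 (0.973) and *HAB1* (0.958), a phosphatase of abscisic acid signalling.

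For *LNK4* they were *SPA3* (0.972), a repressor of light signalling, AT1G44000 (0.967) and *COL1* (0.962), a relative of *CONSTANS*. For *LNK1* they were *ABCF5* (0.963), AT1G49010 (0.958) and the aquaporin gene *PIP1B* (0.950). After the group means were removed, r for these 12 genes lay between 0.484 and 0.922. The genes were picked by r over the same libraries, which favours a high value here. Deviations within a group are also tied by its mean, and no other genes were set beside these.

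Within the family r over the 12 libraries was 0.926 for *LNK3* and *LNK4*, 0.896 for *LNK1* and *LNK2*, and 0.894 for *LNK2* and *LNK4*. Without the group means it was 0.850 for *LNK1* and *LNK2*, 0.178 for *LNK3* and *LNK4*, and 0.2 for *LNK2* and *LNK4*. It was thus high only for the first of these pairs. The share of all genes with such a value was not counted. *PRR5* ran opposite to *LNK3* (r = -0.896) and to *LNK4* (r = -0.893) over the same 12 libraries, as did *PRR3* (-0.895 and -0.899). Without the group means r of *PRR5* was -0.419 with *LNK3* and -0.401 with *LNK4*, and that of *PRR3* was -0.236 and -0.108.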

How the data were processed

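The deposited data are a single table, made by the authors, with the unscaled count of each model in the 12 libraries. Per the methods, filtered reads were aligned with BWA to representative cDNA models of TAIR10 and counted on the reverse strand. No column was left without a sample. Empty entries (33457) were read as 0, the smallest count written being 1.

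Tests used edgeR 4.0.16 (R 4.3.3), quasi-likelihood with TMM factors and the 4 groups fitted together, on models that reached 1 CPM in 3 or more libraries. Adjustment was by Benjamini-Hochberg over all 19961 genes, and genes were called under 0.01, the study's filter and threshold, while the study used edgeR's exact test. Alternatives were DESeq2 1.42.0, the exact test, other scalings, filters and thresholds, separate fits of the groups compared, a replicate block and leaving out each library. Standard errors were derived from the F statistic. Depth was 15975840 to 21713130 counts, so that 3 counts are worth 0.138 to 0.188 CPM.

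Named are the family, 29 clock genes outside it and, per member, the 3 genes most correlated with it. The members and lists were chosen with earlier results of these data known. Lengths, coordinates, upstream sequences and symbols come from RefSeq's TAIR10.1, in which 25259 of 26245 models have the same name. Reference windows and pair ratios were computed with Python 3.11.15. On simulated data with 200 of 19961 genes changed by a log2 value of 1, for the comparison of DEX with mock in *RVE8:GR*, 200 were recovered with 7 false calls. The changed genes were drawn from those with at least 5 CPM, and all genes had the same simulated spread. Smaller changes, such as those of the *LNK* genes in this comparison, were not simulated.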

Additional observations from a re-analysis of the deposited data

Results flagged for a closer look

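Whether DEX acted differently in the 2 lines was tested as an interaction, which passed the threshold for 3 members by edgeR. It was -1.16 on the log2 scale for *LNK3*, lower with DEX in *RVE8:GR* and higher in *rve8*, with *LNK1* at -0.55 and *LNK2* at -0.56. The value for *LNK4*, -0.59, had an adjusted p of 0.0102 and was not past it. The call of *LNK2* held in 2 of the 12 fits without 1 library, and *LNK4* was called in 2 of them.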

How the results depend on the processing

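No call of a member reversed. Of the member values under alternatives, 361 kept their side of the threshold, 33 gained a call and 18 lost one. In *RVE8:GR* + DEX against *RVE8:GR* + mock the members called were 1, but 3 at an adjusted p under 0.05, 2 without TMM factors, with upper-quartile factors, without a filter, with at least 10 counts in every library, by the exact test or by DESeq2, and 1 to 2 without 1 library. In *rve8* + DEX against *rve8* + mock 2 were called, 1 without TMM factors and 0 to 2 without 1 library, the 0 being without *rve8* + DEX replicate 2 and without *rve8* + mock replicate 2. In the interaction 3 were called, 4 at 0.05, without a filter, with at least 10 counts or by DESeq2, and 2 to 4 without 1 library. In *RVE8:GR* + mock against *rve8* + mock 0 were called, 2 at 0.05, without TMM factors, with upper-quartile factors, without a filter, by the exact test or by DESeq2, and 0 to 1 without 1 library.

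Over all genes 685 were called in *RVE8:GR* + DEX against *RVE8:GR* + mock, 842 against *rve8* + DEX, 1103 in *rve8* + DEX against *rve8* + mock, 344 in *RVE8:GR* + mock against *rve8* + mock and 237 in the interaction. At 0.05 these were 1345, 1458, 2476, 1069 and 560 in that order. The exact test called 1083 in the first and 782 in the fourth, a fit of only the groups compared 215 in the fourth, and DESeq2 671 in the fourth and 438 in the interaction. Without 1 library they ranged over 377 to 823, 529 to 952, 512 to 1403, 138 to 620 and 126 to 317. The longest annotated model, chosen as an alternative after seeing the data, lowered *LNK2* to between 51.9 and 98.4 CPM per kb and *LNK4* to between 12.8 and 25.0. No exact test or separate fit was made of the interaction.

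Same-numbered libraries share only a number: their deviations correlated at -0.0884 to 0.213, over 0.1 in 3 of 18 pairs. With the replicate block 1, 4, 2, 0 and 2 members were called, and 791, 912, 1251, 434 and 260 genes. Of the members *LNK2* in the interaction lost its call (adjusted p = 0.0125 by edgeR). At these depths, *LNK3* rested on 111 to 421 counts a library.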
